A study of Rattus norvegicus with 12 samples.

Results

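The smooth muscle contractile genes examined were Acta2, Actg2, Myh11, Mylk, Cnn1, Tagln, Smtn, Des, Lmod1 and Myocd. They were the 10 genes, of 26612 gene names on the array, whose probes carried these names in the scanner files, and 15 of 30367 probes measured them. Expression was measured in cells dispersed with collagenase from the cervix of adult female Sprague Dawley rats. The 4 groups held 3 rats each: whole cervix from pregnant rats on day 21 after breeding (D21, usually the day before birth), whole cervix from non-pregnant rats in proestrus (NP), and Mφ-depleted cervix from other D21 rats and other NP rats. From the depleted suspensions, macrophages (Mφs) bound by the antibody ED1 had been pulled out on a magnet. RNA of 1 rat went on each array, and no group had a treatment beyond these steps. The depleted cells passed through antibody, bead and wash steps that the whole cells did not, so removal of Mφs and the handling that went with it cannot be told apart.

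Smooth muscle contracts when myosin II filaments pull on filaments of smooth muscle actin. Calcium acts through calmodulin on myosin light chain kinase, which phosphorylates the regulatory light chain of myosin and starts the cycle. Calponin, transgelin, smoothelin and leiomodin bind actin filaments, desmin forms the intermediate filaments of the muscle cell, and myocardin is the coactivator of serum response factor that turns on many of these genes. The cervix holds bundles of smooth muscle within a stroma rich in collagen, and it softens before birth.

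The probes are shown because 5 of the 10 genes had a pair of probes at different places in the transcript, and the place of the probe bears on several values below. Those of Mylk, Smtn and Myh11 lay far apart, those of Actg2 overlapped, and the dimmer probe of Lmod1 was well above background on only 2 of 12 arrays. Sequences are those of the array files, 5′ to 3′, in the rn4 build. Capitals mark the hexamer AATAAA, a common poly(A) signal, or the stop codon TAA at the end of a probe. AATAAA was found in 2 of the 15 probes, those of Acta2 and the downstream probe of Mylk, and in 8.4% of all probes on the printed strand (11% on either strand). For these 2 probes, 30 of 60 bases are given.

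Mylk, upstream probe, chr11:67604486-67604545, minus strand: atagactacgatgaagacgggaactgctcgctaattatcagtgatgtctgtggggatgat
Mylk, downstream probe, last 30 bases, chr11:67602541-67602570, minus strand: ctcacaatttttaAATAAAggataccacag
Myh11, upstream probe, chr10:769544-770044, plus strand: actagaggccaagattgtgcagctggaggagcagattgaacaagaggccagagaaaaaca
Myh11, downstream probe, chr10:775993-776052, plus strand: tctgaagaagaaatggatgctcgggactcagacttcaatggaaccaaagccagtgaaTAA
Smtn, upstream probe, chr14:84165650-84165709, minus strand: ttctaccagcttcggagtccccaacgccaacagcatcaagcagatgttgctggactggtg
Acta2, first 30 bases, not placed in the file: ttttttAATAAAtcagacatgtgctaccct
Cnn1, chr8:21219991-21220050, plus strand: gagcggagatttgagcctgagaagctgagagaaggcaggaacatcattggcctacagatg

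The 60 bases of the upstream probe of Myh11 are spread over 501 bases of the genome in the file. The single probe of Cnn1 is shown because Cnn1 had the largest change with Mφ depletion in NP rats among the 9 genes tested. The downstream probe of Mylk, at 1945 bases from the upstream probe, was the brighter and stands for the gene unless said otherwise, as do the downstream probes of Myh11 and Smtn.

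Values are log2 intensities with the 75th percentile of the array subtracted, so a value of 0 is that percentile and a difference of 1 is a doubling. The 75th percentile intensity ran from 289.7 to 1170.6, and 44.9% to 61.8% of the probes of an array were rated well above background by the scanner software. Of the contractile genes, 8 were well above background on all 12 arrays. Lmod1 was so on 8 arrays, which left 1 of 3 in each depleted group, and Myocd was so only in NP whole rat 10. No probe of a contractile gene was saturated. Testing with limma required a rating well above background in all 3 rats of either group compared, and a gene was called as in the Methods, at an unadjusted p under 0.01 and a change of 2-fold or more. The p-values rest on 1 estimate of the spread from all 12 arrays, which takes the groups to vary alike. Depleted D21 rats varied more than whole D21 rats in every contractile gene. The log2 SD was 1.44 against 0.40 for Actg2 and 0.34 against 0.31 for Cnn1. With 3 rats a group, the number of arrays limits the precision. Beside the contractile genes, 9 of the 11 Mφ markers were higher in whole than in depleted cervix of D21 rats, and 7 of the 9 tested were higher in NP rats. Of all genes tested, 10% were called higher in D21 and 13.6% in NP rats. Adgre1, Mrc1 and Mpeg1 stayed near background in both depleted groups, and Cd68, which encodes the ED1 antigen, differed by -0.14 ± 0.62 in D21 and by 0.54 ± 0.62 in NP rats (log2, SE).

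Arrays of Mφ-depleted D21 rats 1 and 2 stood apart from the other 10. For 1140 genes with a pair of probes well above background on all arrays, the median downstream minus upstream difference was 1.031 in rat 1 and 1.11 in rat 2. It was 0.525 in the Mφ-depleted D21 rat 4, 0.4 to 0.718 in depleted NP rats, 0.384 to 0.529 in whole NP rats and 0.287 to 0.297 in whole D21 rats. The labelling primed reverse transcription at the poly(A) tail. For the contractile genes, the gaps between probes and several of the lists below, values without rats 1 and 2 are given as well.

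The actins and myosin come first, as the filaments that make force. Acta2, smooth muscle α-actin, had log2 values of 5.36, 4.61 and 5.44 in whole cervix of NP rats 8, 9 and 10, and of 3.93, 3.74 and 3.59 in D21 rats 5, 6 and 7. In Mφ-depleted cervix the values were 1.25, 1.33 and 1.92 in NP rats 5, 6 and 7, and 3.21, 3.66 and 1.83 in D21 rats 1, 2 and 4. All NP whole rats lay above all D21 whole rats, while the depleted D21 rats reached from within the range of the depleted NP rats (rat 4) into that of whole D21 cervix (rat 2). Actg2, the γ-actin of enteric and uterine smooth muscle, had values of 7.59, 6.44 and 7.38 in NP whole rats 8, 9 and 10, and of 7.04, 6.66 and 6.24 in D21 whole rats 5, 6 and 7. Depleted cervix gave 1.24, 0.86 and 2.13 in NP rats 5, 6 and 7, and 4.85, 6.22 and 3.34 in D21 rats 1, 2 and 4. The whole groups overlapped, and the depleted groups lay apart from each other and below both.

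Myh11, the smooth muscle myosin heavy chain, had log2 values of 5.56, 5.20 and 5.43 in NP whole rats 8, 9 and 10, and of 4.76, 4.44 and 4.47 in D21 whole rats 5, 6 and 7. Depleted cervix gave 1.81, 2.01 and 2.02 in NP rats 5, 6 and 7, and 1.35, 1.99 and 2.36 in D21 rats 1, 2 and 4. Here the depleted groups overlapped, and both lay below every whole rat. Mylk, myosin light chain kinase, had values of 5.42, 5.30 and 4.92 in NP whole rats 8, 9 and 10, and of 4.16, 3.99 and 3.95 in D21 whole rats 5, 6 and 7. Depleted cervix gave -0.38, 0.21 and 0.15 in NP rats 5, 6 and 7, and 2.74, 2.89 and 1.00 in D21 rats 1, 2 and 4. By this downstream probe, the 4 groups of Mylk did not overlap, in the order NP whole, D21 whole, D21 depleted and NP depleted. By its upstream probe the whole groups overlapped, with values from 1.58 to 2.69 in NP and from 1.72 to 2.14 in D21 rats.

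Among the proteins that bind actin filaments, Cnn1 (calponin) had log2 values of 6.02, 5.34 and 5.71 in NP whole rats 8, 9 and 10, and of 4.88, 4.41 and 4.29 in D21 whole rats 5, 6 and 7. Depleted cervix gave -1.05, -1.19 and -0.66 in NP rats 5, 6 and 7, and 0.20, 0.87 and 0.62 in D21 rats 1, 2 and 4. The groups of Cnn1 did not overlap either, and depleted D21 rats 1 and 2 did not stand apart from rat 4. Tagln (transgelin) ran from 7.14 to 7.70 in NP whole, from 6.55 to 6.76 in D21 whole, from 3.71 to 4.74 in D21 depleted and from 2.67 to 3.26 in NP depleted cervix, again with no overlap. Smtn (smoothelin) was at 4.01, 4.02 and 4.27 in NP whole rats 8, 9 and 10, and at 3.30, 2.80 and 2.74 in D21 whole rats 5, 6 and 7. Its depleted values were 1.90, 1.70 and 1.75 in NP rats 5, 6 and 7, and 2.15, 2.85 and 1.29 in D21 rats 1, 2 and 4. Depleted D21 rat 4 was the lowest of all for Smtn, and depleted D21 rat 2 lay within the range of D21 whole cervix.

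Des (desmin, the muscle intermediate filament protein) had log2 values of 6.09, 5.61 and 6.34 in NP whole rats 8, 9 and 10, and of 5.86, 5.58 and 5.54 in D21 whole rats 5, 6 and 7. Depleted cervix gave 0.52, 0.83 and 0.63 in NP rats 5, 6 and 7, and 3.48, 4.67 and 2.58 in D21 rats 1, 2 and 4. The whole groups of Des overlapped, and the depleted groups lay apart. Lmod1 (leiomodin, which nucleates actin filaments) ran from -0.25 to -0.16 in NP whole, from -0.67 to -0.38 in D21 whole, from -6.09 to -3.84 in NP depleted and from -6.12 to -4.16 in D21 depleted cervix. Its depleted levels were measured on 1 of 3 arrays in each group and overlapped. Myocd (myocardin) ran from -4.66 to -3.49 in NP whole and from -4.79 to -4.69 in D21 whole cervix, and from -7.27 to -4.98 over the depleted rats, and could not be tested.

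**Figure D1:**
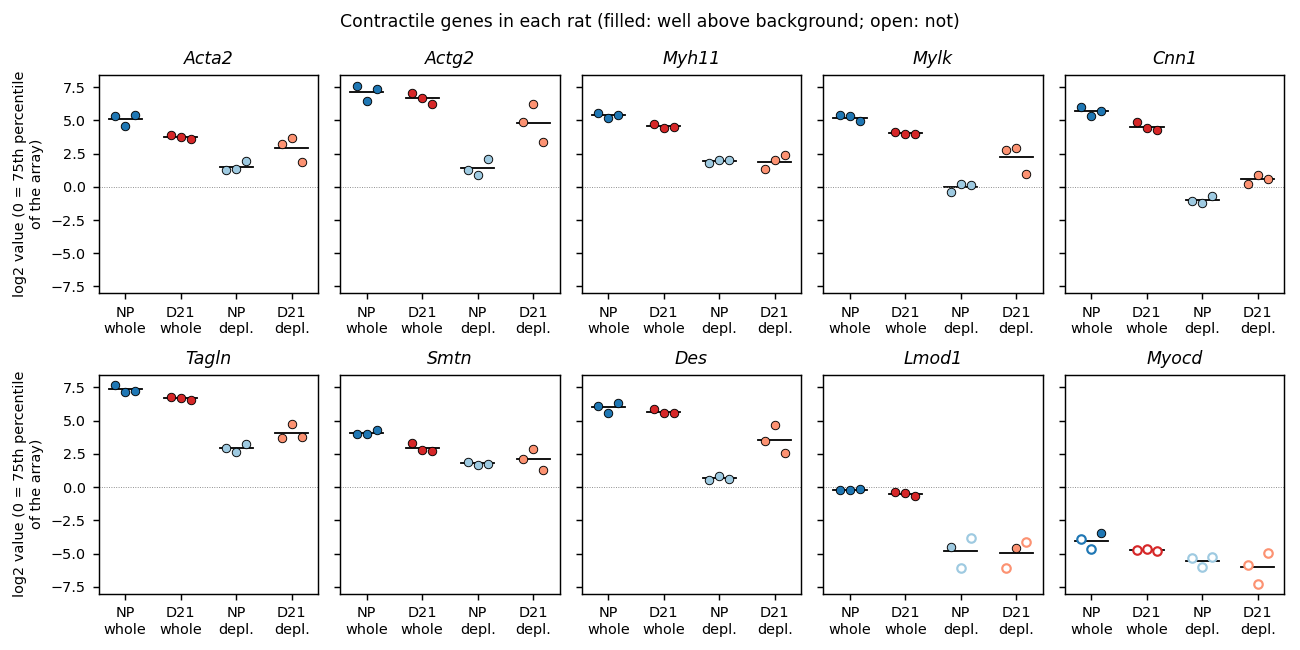
Log2 value of each contractile gene (vertical axis, 0 at the 75th percentile of the array) in each of the 12 rats by group (horizontal axis; depl., Mφ-depleted), with rats of a group from left to right in order of their number. Points are rats, filled where the probe was well above background, and lines are means of 3 rats; the Cnn1 points form 4 separate groups, from 6.02 at the top in NP whole to -1.19 at the bottom in NP depleted cervix.

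Of the 9 contractile genes tested in whole cervix, 3 were called lower in D21 than in NP rats and 6 were not called. Acta2 was 2.62-fold lower (log2 difference -1.39 ± 0.43, SE, limma adjusted p = 0.0812), Cnn1 was 2.24-fold lower (-1.16 ± 0.28, adjusted p = 0.0365) and Smtn was 2.23-fold lower (-1.16 ± 0.34, adjusted p = 0.0745). Of all genes tested in this comparison, 3.1% were called lower, and 5.38% were called higher, while the difference was below 0 for each of the 9 contractile genes. After Benjamini-Hochberg adjustment over all 14063 genes, Cnn1 alone of the 9 passed, where 1.9% of all genes were lower.

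The other 6 genes did not pass. Mylk differed by -1.18 ± 0.43 (log2, adjusted p = 0.132), Myh11 by -0.84 ± 0.27 (adjusted p = 0.0874) and Tagln by -0.68 ± 0.30 (adjusted p = 0.212). The difference was -0.49 ± 0.62 for Actg2, -0.36 ± 0.43 for Des and -0.30 ± 0.56 for Lmod1. In 7 of the 9 genes, all but Actg2 and Des, every D21 rat lay below every NP rat, against 24.2% of all genes tested. For Mylk and Smtn this held only for the downstream probe. The upstream probe of Mylk ran from 1.72 to 2.14 in D21 and from 1.58 to 2.69 in NP whole cervix. That of Smtn ran from 1.63 to 2.54 in D21 and from 2.27 to 3.08 in NP whole cervix. The median difference of the 9 was -0.84, against -0.08 over all genes.

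Skeletal muscle markers moved the same way in whole cervix. Of 9 markers on the array 5 could be tested, and all 5 were lower in D21, with a median difference of -2.73. Their summed level, in units of the 75th percentile of the array, was 10.8 to 39.3 in NP whole and 1.32 to 2.39 in D21 whole cervix, and the myosin heavy chain genes Myh1, Myh2 and Myh4 never rose well above background. Of the 10 epithelial markers 8 were higher in D21 whole cervix, with a median difference of 1.57. Their part in the lower values of the contractile genes was not tested. In bulk RNA, fewer smooth muscle cells and less RNA per cell cannot be told apart.

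Slide 4 held all 3 D21 whole arrays and that of NP whole rat 10, and within it the median difference of the 8 genes measured on all arrays was -0.88, with none of the 8 above 0. With slide as a block the 3 calls were lost, at -1.69 for Acta2, -1.18 for Cnn1 and -1.33 for Smtn (limma adjusted p between 0.232 and 0.276). Smtn was not called by its upstream probe (-0.80, unadjusted p = 0.06 in limma), by the mean of its probes or with normexp background correction. The rats left out mattered too: 0 genes were called without NP whole rat 8 (the change of Cnn1 was then just under 2-fold), and 1 without NP whole rat 10 or D21 whole rat 6 or 7.

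Removal of Mφs went with large differences in these genes. In NP rats, expression of all 9 genes tested was higher in whole cervix than after depletion, where 13.6% of all genes were called higher, and all 9 passed the adjusted threshold (17% of all genes). Cnn1 was 101-fold higher (log2 difference 6.66 ± 0.28, SE, limma adjusted p = 2.13e-07), Actg2 53.1-fold (5.73 ± 0.62), Des 40.9-fold (5.35 ± 0.43) and Mylk 37.2-fold (5.22 ± 0.43). These 4 genes come from different parts of the apparatus, the thin filament, the intermediate filament and the kinase. Tagln was 21.4-fold higher (4.42 ± 0.30), Acta2 12.5-fold (3.64 ± 0.43), Myh11 10.9-fold (3.45 ± 0.26) and Smtn 5-fold (2.32 ± 0.34). Lmod1 differed by 4.59 ± 0.56, a size set against depleted values that were above background on 1 of 3 arrays, and by 2.09 with normexp background correction. It entered the test only through its level in whole cervix. The highest adjusted p of the 9 was that of Smtn, at 0.000423. No depleted rat reached a whole rat in any of the 9, as in 22.9% of all genes tested. Their median difference was 4.59, and 4.82 over the 8 genes without Lmod1, against -0.04 over all genes and 5.04 over the 9 Mφ markers tested.

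Within slide 3, which held NP whole rats 8 and 9 and depleted NP rat 7, the median difference of 8 genes was 4.53, and all 8 were above 0. All 9 genes were called without any 1 rat and with slide or scan day as a block.

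In D21 rats, expression of 6 of the 9 genes was higher in whole cervix than after depletion, where 10% of all genes were called higher. Cnn1 was 15.6-fold higher (log2 difference 3.96 ± 0.28, SE, limma adjusted p = 1.24e-05). Myh11 was 6.31-fold higher (2.66 ± 0.27, adjusted p = 0.000137), Tagln 6.1-fold (2.61 ± 0.30, adjusted p = 0.000394), Des 4.24-fold (2.08 ± 0.43, adjusted p = 0.00826) and Mylk 3.54-fold (1.82 ± 0.43, adjusted p = 0.0156). Lmod1, above background on 1 of 3 depleted arrays and tested only through whole cervix, differed by 4.45 ± 0.56 (adjusted p = 0.000598), and with normexp background correction by 0.99 (adjusted p = 0.349), where it was not called. The same 6 passed the adjusted threshold, as did 11.9% of all genes in that direction. The 3 not called were Actg2 (1.84 ± 0.62, adjusted p = 0.0541), Acta2 (0.85 ± 0.43, adjusted p = 0.161) and Smtn (0.85 ± 0.34, adjusted p = 0.0944). In 7 genes, the 6 called and Actg2, no depleted rat reached a whole rat, against 21.3% of all genes. The median over the 9 was 2.08, and 1.96 over the 8 without Lmod1, against -0.06 over all genes. Over the 11 Mφ markers the median in D21 rats was 5.04.

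Depleted D21 rats 1 and 2 both lay nearer to whole cervix than rat 4 in Acta2, Actg2, Des, Mylk and Smtn. In Cnn1 and Tagln only rat 2 did so, and in Myh11 and Lmod1 neither did. By its upstream probe Mylk was at -2.82, -2.31 and -2.13 in rats 1, 2 and 4, with rat 4 nearest. The upstream probe of Smtn was at -0.50 in rat 1, just below -0.43 in rat 4. Without rats 1 and 2, rat 4 alone stood for depleted D21 cervix and is assumed to vary like the other groups. The median difference over the 9 genes was then 3.03. Acta2 was then at 1.92, Actg2 at 3.31 and Smtn at 1.66. No slide held whole and depleted D21 arrays, and on the scan day that held both the median was 2.96, with all 8 genes measured on every array above 0. With slide as a block 5 genes were called, without Des (2.01, adjusted p = 0.412), and Cnn1 alone passed the adjusted threshold (0.0422). The share of all genes called with slide as a block is not reported here.

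**Figure D2:**
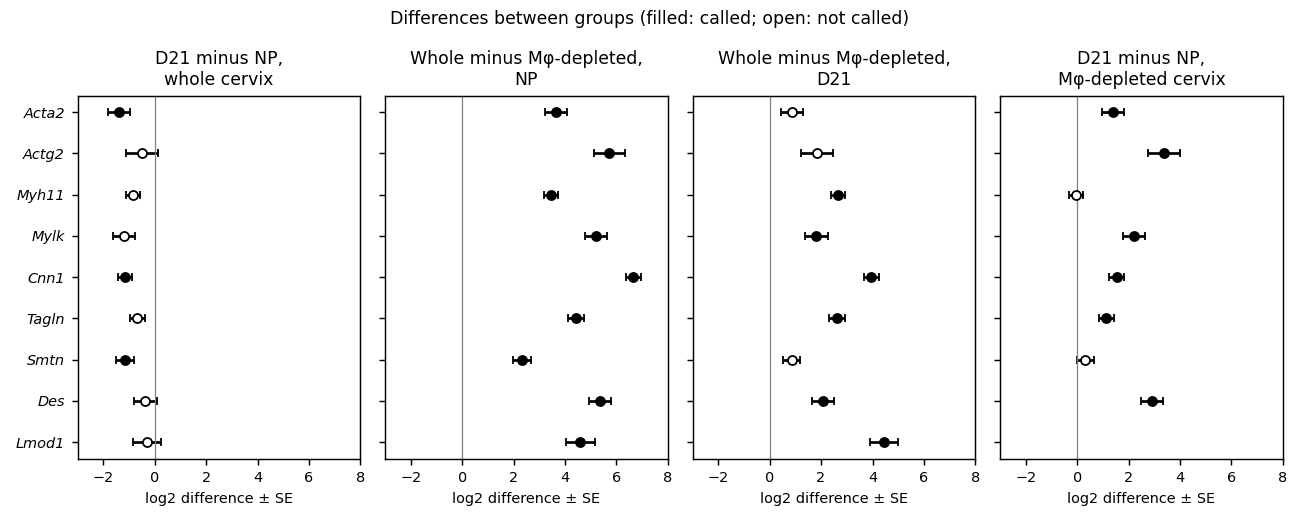
Log2 differences between groups (horizontal axis) for the 9 contractile genes that could be tested (rows), 1 panel for each comparison; bars are SE from limma with 3 rats a group, and filled points were called. All 9 points lie right of 0 for whole against Mφ-depleted NP cervix, from 2.32 for Smtn to 6.66 for Cnn1, and all 9 lie left of 0 for D21 against NP whole cervix; Lmod1 has no point in the last panel because it was not tested there.

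The change with depletion was smaller in D21 than in NP rats for 5 of the 9 genes, by a test of the difference itself at an adjusted p of 0.05. Over all genes tested, 1.95% had such a smaller change. The D21 change minus the NP change was -3.89 ± 0.89 for Actg2 (log2, SE, limma adjusted p = 0.0465), -3.40 ± 0.61 for Mylk (adjusted p = 0.018) and -3.27 ± 0.61 for Des (adjusted p = 0.0215). It was -2.79 ± 0.61 for Acta2 (adjusted p = 0.0404) and -2.69 ± 0.40 for Cnn1 (adjusted p = 0.00797). The 4 that did not pass were Tagln (-1.81 ± 0.43, adjusted p = 0.0556), Smtn (-1.47 ± 0.49, adjusted p = 0.142), Myh11 (-0.79 ± 0.38, adjusted p = 0.285) and Lmod1 (-0.14 ± 0.80, adjusted p = 0.94). The median over the 9 was -2.69, against -0.05 over all genes. Among the 8 genes measured on every array, the changes of Myh11 (2.66 in D21, 3.45 in NP) lay nearest to each other and those of Actg2 (1.84 and 5.73) farthest apart. The value of Lmod1 rests on 1 of 3 depleted arrays in each group and was -1.10 with normexp background correction.

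The number of genes that passed moved with the arrays. Without depleted D21 rats 1 and 2 only Cnn1 passed, at -2.75 (adjusted p = 0.0462), and the median was -1.72. With slide as a block the 5 calls were lost (adjusted p from 0.0724 for Cnn1 to 0.221 for Actg2) while the values lay between -2.87 for Cnn1 and -4.21 for Actg2, in a fit that leaves depleted D21 rat 1 without weight because it was alone on its slide. With scan day as a block 3 passed, Cnn1, Des and Mylk, and with normexp background correction or with no filter on background Cnn1 alone passed. Cnn1 passed in each of the 12 fits that left out 1 rat, Mylk in 8, Des in 7, and Acta2 and Actg2 in 3.

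**Figure D3:**
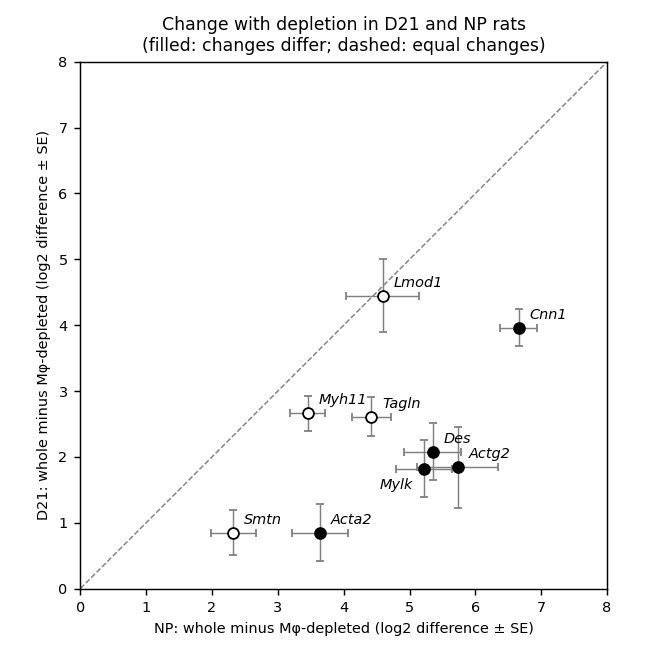
Whole minus Mφ-depleted log2 difference of each contractile gene in NP rats (horizontal axis) and D21 rats (vertical axis), with SE from limma and 3 rats a group; the dashed line marks equal changes and filled points are genes whose changes differed at an adjusted p of 0.05. All 9 points lie under the line, Actg2 among the farthest at 5.73 and 1.84; Lmod1, at 4.59 and 4.45, was above background on 1 of 3 depleted arrays in each group.

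In depleted cervix, D21 was also set against NP directly. These values share their arrays with the comparisons above. Of 8 genes tested, 6 were higher in D21, where 5.45% of all genes were called higher. Actg2 was 10.5-fold higher (log2 difference 3.39 ± 0.62, SE, limma adjusted p = 0.0102), Des 7.54-fold (2.92 ± 0.42, adjusted p = 0.00297) and Mylk 4.65-fold (2.22 ± 0.43, adjusted p = 0.0135). Cnn1 was 2.89-fold higher (1.53 ± 0.28, adjusted p = 0.00968), Acta2 2.64-fold (1.40 ± 0.42, adjusted p = 0.0942) and Tagln 2.19-fold (1.13 ± 0.30, adjusted p = 0.0601). After adjustment 4 of these passed, where 3.62% of all genes did so. Myh11 differed by -0.05 ± 0.26 (adjusted p = 0.936) and Smtn by 0.32 ± 0.34 (adjusted p = 0.618). In 5 genes the depleted D21 rats were all higher than the depleted NP rats, against 9.48% of all genes.

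Acta2 was called in 2 of the 6 fits that left out 1 rat, and not with slide (1.32, adjusted p = 0.259) or scan day (1.32, adjusted p = 0.218) as a block or with normexp background correction (0.98, adjusted p = 0.434). Without rats 1 and 2, the difference was 1.93 for Actg2, 1.92 for Des, 1.59 for Cnn1 and 1.01 for Mylk. It was then 0.84 for Tagln, 0.33 for Acta2, 0.41 for Myh11 and -0.49 for Smtn. Within slide 1, which held depleted D21 rat 2 and depleted NP rats 5 and 6, the median of 8 genes was 2.18 and all were above 0. Within slide 3, which held depleted D21 rat 4 and depleted NP rat 7, it was 0.69 and 6 of 8 were above 0.

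The place of the probe changed what was read for Mylk. Levels of different probes cannot be compared, so only how the gap between the probes of a gene moved from array to array is read here. The downstream minus upstream gap of Mylk was 2.03, 2.14 and 2.22 in D21 whole rats 5, 6 and 7, and 5.56, 5.21 and 3.13 in depleted D21 rats 1, 2 and 4. In NP rats it was 2.72, 3.72 and 2.53 in whole rats 8, 9 and 10, and 3.14, 3.39 and 3.00 in depleted rats 5, 6 and 7. The gap was thus widest in depleted D21 rats 1 and 2, as was the median over 1140 genes.

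Between whole and depleted D21 cervix the gap of Mylk differed by -2.50 ± 0.53 (log2, SE, limma adjusted p = 0.0211 over 1140 genes), that of Smtn by -1.20 ± 0.27 (adjusted p = 0.0211) and that of Myh11 by -0.88 ± 0.22 (adjusted p = 0.022). In this comparison 41.4% of the 1140 genes differed at an adjusted p of 0.05, with a median of -0.58. Without rats 1 and 2, 0.0877% of the genes differed, the median was -0.22, and none of the gaps of Mylk (-1.0), Smtn (-0.75) and Myh11 (-0.38) passed (adjusted p between 0.589 and 0.599). The pair of Actg2, 14 bases apart, differed by -0.13 ± 0.18 (adjusted p = 0.566). In NP rats 0.789% of the genes differed, and the gap differed by -0.19 for Mylk, -0.57 for Smtn, -0.46 for Myh11 and 0.28 for Actg2 (adjusted p between 0.487 and 0.89).

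By its upstream probe, Mylk was higher in whole than in depleted cervix by 4.33 ± 0.32 in D21 and by 5.41 ± 0.32 in NP rats (log2, SE). The difference between the changes was then -1.08 ± 0.46 (adjusted p = 0.23), and Mylk did not differ between D21 and NP depleted cervix at the threshold (0.76 ± 0.32, adjusted p = 0.202). In whole cervix, D21 against NP, the upstream probe of Mylk gave -0.32 where the downstream probe gave -1.18. The upstream probe of Smtn was higher in whole cervix by 2.05 ± 0.38 in D21 (adjusted p = 0.0053), where the downstream probe was not called. For Myh11 the upstream probe gave 3.54 ± 0.37 in D21 and 3.91 ± 0.37 in NP rats, again with no difference between the changes at the threshold (-0.38 ± 0.53, adjusted p = 0.724). With upstream probes throughout, 7 of 9 genes were called higher in whole D21 cervix and 4 of 9 had a smaller change in D21. Those 4 were Acta2, Actg2, Cnn1 and Des, for which the probe was the same as before. Of the genes read by another probe, Mylk, Smtn (-0.85, limma adjusted p = 0.414) and Myh11, none passed. The share of all genes called with upstream probes is not reported here. Acta2, Cnn1, Des and Tagln had a single probe each, so a second probe could not be read for them. The overlapping second probe of Actg2 gave -4.30 ± 0.81 for the difference between the changes (adjusted p = 0.0237).

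**Figure D4:**
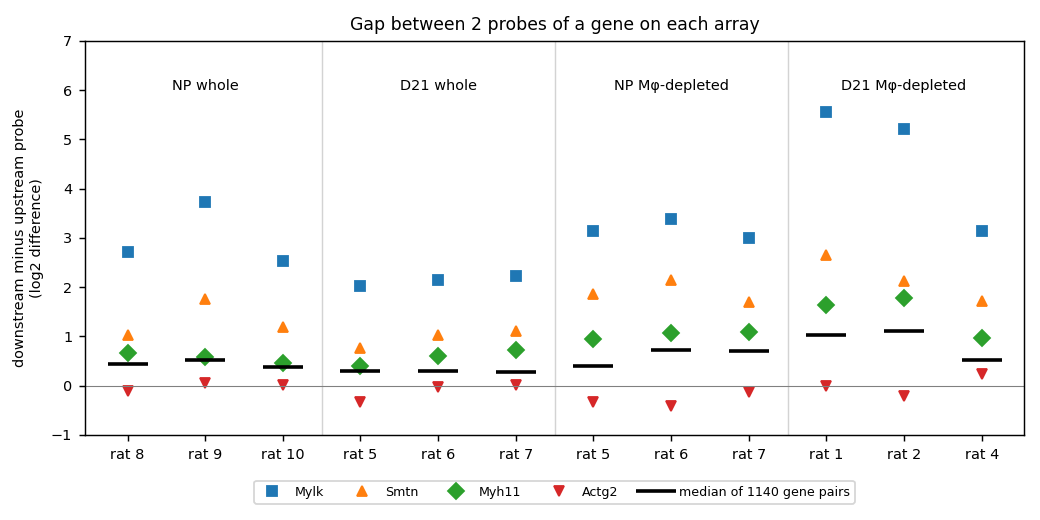
Downstream minus upstream probe (vertical axis, log2 difference) of 4 contractile genes on each of the 12 arrays (horizontal axis, rats by group), with black bars for the median of 1140 genes with a pair of probes. Mylk reaches 5.56 and 5.21 in Mφ-depleted D21 rats 1 and 2, where the median is 1.031 and 1.11, and the overlapping pair of Actg2 stays near 0 on all arrays.

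Partners of the contractile genes were read from lists of their pathway. Of 11 thin filament and adhesion partners on the array, 8 were higher in whole than in depleted NP cervix and 6 in D21 cervix (6 also without depleted D21 rats 1 and 2). In NP rats Synpo2 (synaptopodin 2, a Z-disc and dense body protein) differed by 3.94 ± 0.31, Cald1 (caldesmon) by 3.76 ± 0.38 and Tpm1 (α-tropomyosin) by 3.15 ± 0.29 (log2, SE). In D21 rats the values were 3.25 for Synpo2, 3.11 for Cald1 and 1.84 for Tpm1. The list median was 2.38 in NP and 1.22 in D21 rats. The D21 change minus the NP change had a median of -0.79 over the 11, against -0.05 over all genes. In whole cervix Synpo2 (-1.03) was lower in D21 than in NP rats.

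Of the genes for myosin light chains and regulators of their phosphorylation, 4 of 8 tested were higher in whole NP cervix and 3 of 9 in whole D21 cervix (1 of 9 without depleted D21 rats 1 and 2). Myl9, the regulatory light chain that the kinase phosphorylates, differed by 4.25 ± 0.34 in NP and by 2.64 ± 0.34 in D21 rats. Ppp1r14a, an inhibitor of myosin phosphatase, differed by 1.95 and the phosphatase subunit Ppp1r12a by 1.27, both in NP rats. Ppp1r14a was also lower in D21 than in NP whole cervix (-1.15).

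Among receptors, channels and calcium handling genes, 5 of 9 tested were higher in whole NP cervix and 1 of 8 in whole D21 cervix. The 1 of 8 is near the 10% of all genes called higher there, so it is not read as a result about the list. Kcnmb1, the β1 subunit of the large-conductance calcium-activated potassium channel, differed by 5.51 ± 0.41 in NP and 5.02 ± 0.41 in D21 rats. Chrm3, the M3 muscarinic receptor, differed by 4.05 in NP rats, Cacna1c, the pore of the L-type calcium channel, by 3.53, and Kcnma1, the pore of the potassium channel, by 2.92. Kcnmb1, Chrm3, Cacna1c and Kcnma1 were not well above background in all 3 rats of either depleted group. Like Lmod1, they entered the test only through whole cervix, and the sizes of their differences are limited by background. Between D21 and NP whole cervix the median difference of the 8 tested was -0.04, and Gja1, the gap junction protein connexin 43, differed by 0.02 ± 0.65 (limma adjusted p = 0.992).

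Of 6 transcription factors of the contractile programme that could be tested, 1 was called in each of a pair of comparisons. Of all genes, 5.38% were called higher in D21 than in NP whole cervix, and 10% in whole than in depleted D21 cervix. With 6 genes, a single call is not read as a result about the list. Klf4, which represses smooth muscle genes, was higher in D21 than in NP whole cervix by 1.15 ± 0.33 (limma adjusted p = 0.0664), and Elk1, a competitor of myocardin for serum response factor, was higher in whole than in depleted D21 cervix by 1.60 ± 0.32 (adjusted p = 0.00743), a call lost without depleted D21 rats 1 and 2. Srf itself differed by -0.73 ± 0.35 between D21 and NP whole cervix (adjusted p = 0.249).

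Other isoforms of the same families changed with depletion as well, and not all are smooth muscle genes. Acta1, skeletal α-actin, was higher in whole cervix by 8.36 ± 0.78 in NP and by 3.55 ± 0.78 in D21 rats, with a difference between the changes of -4.81 ± 1.10 (limma adjusted p = 0.0477). Myh10, a non-muscle myosin heavy chain, was higher by 4.12 ± 0.30 in NP rats, and its changes differed by -3.44 ± 0.43 (adjusted p = 0.00548). Vim, the intermediate filament protein of fibroblasts and other mesenchymal cells, was higher in whole cervix by 1.92 in NP and 1.25 in D21 rats. Of 10 isoforms tested, 4 were called higher in whole cervix of NP rats and 2 in D21 rats, and without depleted D21 rats 1 and 2 neither of the latter was called and the changes differed for 1 isoform.

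Markers of some other cell types differed between whole and depleted cervix along with the contractile genes. Of 10 fibroblast markers, 9 were higher in whole NP cervix (median 4.15) and 3 in whole D21 cervix (median 0.94), and the changes differed for 7 of 10, all smaller in D21. Without depleted D21 rats 1 and 2, 4 were higher in whole D21 cervix (median 0.90) and the changes differed for 3. Summed fibroblast levels, in units of the 75th percentile of the array, were 17.8 to 61.4 in depleted NP, 325 to 487 in depleted D21, 565 to 688 in whole NP and 444 to 662 in whole D21 cervix. The summed level of the 10 contractile genes was 21.4 to 28.6, 44.6 to 160, 435 to 683 and 292 to 399 in the same order. Both lists were thus lowest in depleted NP cervix, with no overlap between the depleted groups. Pericyte markers were higher in whole cervix for 4 of 6 in NP and 3 of 6 in D21 rats, with 1 lower in each, and summed levels of 3.66 to 4.92 in depleted NP, 7.01 to 9.94 in depleted D21, 9.19 to 12 in whole NP and 6.62 to 8.28 in whole D21 cervix.

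Skeletal muscle markers were higher in whole NP cervix for 5 of 5 tested and in whole D21 cervix for 1 of 4, and Acta1 and Des are also made by skeletal muscle. Their summed level was 0.565 to 0.841 in depleted NP and 0.545 to 1 in depleted D21 cervix. Of the endothelial markers, 2 of 9 tested were higher and 1 lower in whole NP cervix, and 3 of 10 were higher in whole D21 cervix. Their summed level was 8.50 to 12.8 in depleted NP, 7.94 to 19.5 in depleted D21, 10.9 to 15.3 in whole NP and 11.3 to 13.0 in whole D21 cervix, so that depleted and whole cervix overlapped. Epithelial markers went the other way, with 6 of 10 lower in whole than in depleted NP cervix and 3 lower and 1 higher in D21 cervix. Immediate-early genes were lower in whole cervix for 7 of 7 tested in NP and 9 of 9 in D21 rats. The share of all genes called lower in whole cervix is not reported here, so these counts of lower genes lack a background. The 8 housekeeping genes had median whole minus depleted differences of 0.06 in NP and 0 in D21 rats, and their summed level was 165 to 318 over the 12 arrays. The part of these cell types in the values of the contractile genes was not tested.

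**Figure D5:**
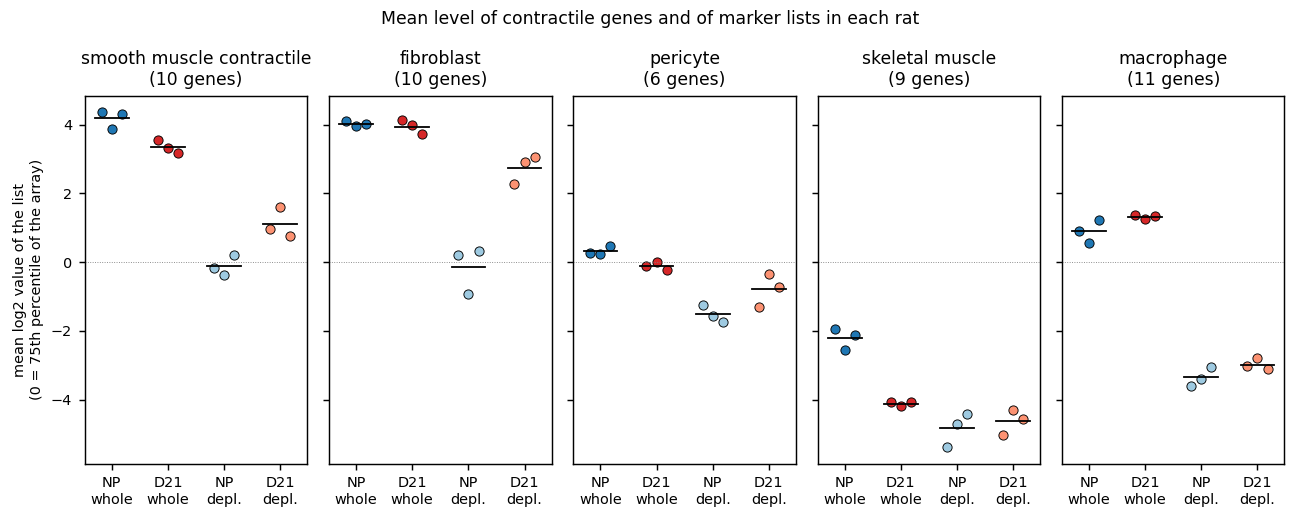
Mean log2 value (vertical axis, 0 at the 75th percentile of the array) of the 10 contractile genes and of 4 lists of marker genes in each rat, by group (horizontal axis; depl., Mφ-depleted); points are rats and lines are means of 3. The fibroblast points of depleted D21 rats, 2.27 to 3.06, lie well above those of depleted NP rats, -0.93 to 0.31, while the Mφ points of both depleted groups lie at or below -2.80.

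The mean profile of the 9 contractile genes over the 12 arrays was compared with that of 14485 genes. By root mean square difference, with every gene centred on its mean, Tagln was the nearest of the contractile genes (0.17) and ranked 1 of all. Smtn was the farthest, at 1.046 and rank 585. Each of the 9 is itself part of the mean profile, so their own ranks are not a test of likeness. Nearest of the other genes were Fhl1 (0.354), Myl9 (0.363), Abcg4 (0.368), Tgfb1i1 (0.389), Glipr1 (0.396), Cacna2d1 (0.42), Ogn (0.449) and Hspb8 (0.449). Fhl1 is a LIM domain protein of muscle, Cacna2d1 an auxiliary subunit of calcium channels, Ogn a proteoglycan of connective tissue, and Hspb8 a small heat shock protein. For Fhl1 the whole minus depleted difference was 4.53 in NP and 2.74 in D21 rats, and for Ogn it was 4.73 and 2.05. The profile itself ran from 2.34 in NP whole rat 8 to -2.68 in depleted NP rat 6, and it was -1.21, -0.35 and -1.53 in depleted D21 rats 1, 2 and 4.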

How the data were processed

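RNA from dispersed cervix cells of 12 rats was hybridised to 1-colour Agilent arrays. The authors deposited scanner intensities for each spot, background-subtracted by Feature Extraction 9.5.3.1 but not normalized between arrays. A second file that the authors deposited holds ratio values, each intensity over the 75th percentile of its array. That scale is not named in the table and was found by setting its columns against the scanner values (Spearman 0.982 to 0.998, column medians 0.08 to 0.12), and the table was used as an alternative only.

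Control spots and outlier spots (294 to 648 an array) were left out, spots of a probe were averaged as log2 intensities, and each array's 75th percentile was subtracted. Probes were named by RefSeq accession (17328 of 30367, 57.1%, matched to a table of the assembly GRCr8), otherwise by the name in the files. The brightest probe stood for a gene with several. Groups were compared with limma 3.58.1 (lmFit and eBayes, R 4.3.3), with a mean for each group and 1 estimate of the spread from all 12 arrays. The difference between changes was an interaction in the same fit, called at a Benjamini-Hochberg adjusted p of 0.05. An exact permutation test of 3 against 3 cannot go below 0.1. The fit was tested on simulated data. Probe positions are those of the array files (rn4).

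The contractile genes, the lists of partners and markers, and the rule for naming genes (up to 4 of a list with the largest change among those called, and the 8 nearest profiles) were chosen with earlier results of these data known. Of a list, only genes on the array could be read, which left out Pgm5, Cnn2, Mylk4, Lmod3, Mylpf and Junb. Genes shown to illustrate a list without being called (Gja1, Srf) were chosen after their values were seen. Some list genes that the naming rule picked are counted but not reported by name here. The gap between probes was examined after the data were seen, as were the alternatives with upstream probes and without Mφ-depleted D21 rats 1 and 2. There were 4 slides and 3 scan days among the 12 arrays. Alternatives were the methods' t-test (Welch), adjusted thresholds, fits on 6 arrays, normexp (offset 50), quantile normalization, other centring, filters on background, the mean of probes, slide and scan day as blocks, the authors' values (log2 with 0.01 added) and leaving out each rat. Python 3.11.15, pandas 2.3.3, numpy 2.4.6 and matplotlib 3.10.9 were used for tables and plots.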

Additional observations from a re-analysis of the deposited data

Results flagged for a closer look

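Whole minus Mφ-depleted differences were not alike in D21 and NP rats for 5 contractile genes, by the interaction in limma. The D21 change minus the NP change, on the log2 scale, was -2.79 for Acta2, -3.89 for Actg2, -2.69 for Cnn1, -3.27 for Des and -3.40 for Mylk. All 5 had a smaller change in D21 rats. By its upstream probe Mylk gave -1.08 (adjusted p = 0.23). Groups of 3 rats are too small to mark single outlying arrays.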

How the results depend on the processing

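No paired analysis was possible because the groups compared share no rat numbers. Of the counts of contractile genes under the alternatives, 182 were within 1.5 times the reported count and 28 were not. The shares of all genes called under the alternatives are not reported here, so these counts lack a background. The 182 include the counts of the opposite direction in each comparison, reported as 0. These stayed at 0 in every fit that left out 1 rat, so the 182 overstate how stable the calls were. For D21 against NP whole cervix, 3 genes were lower as reported, 1 by the methods' t-test and 0 after its adjustment. The gene called by the t-test was Mylk, which was not among the 3 reported. None of Acta2, Cnn1 and Smtn was called by the t-test. The count was 1 by limma with adjusted p, 1 with no filter on background and 0 with slide as a block. Leaving out 1 rat gave 0 to 2, with 0 without NP whole rat 8. For whole against Mφ-depleted D21 cervix, 6 genes became 2 by the methods' t-test and 0 after its adjustment. For D21 against NP in depleted cervix, 6 became 1 and 0 by the same tests, and 3 without depleted D21 rats 1 and 2. The smaller change in D21, found for 5 genes, was found for 1 with normexp, 1 with no filter, 0 with slide as a block, 3 with scan day as a block and 1 without depleted D21 rats 1 and 2. Leaving out 1 rat gave 1 to 7 genes. Whole against depleted NP cervix had 8 or 9 genes higher by every alternative run.

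Slide and scan day as blocks leave depleted D21 rat 1, alone in both, without weight. The sign turned only for genes not called. In depleted cervix, D21 against NP, Myh11 went from -0.05 to 0.19 with slide and 0.19 with scan day as a block, to 0.41 without rats 1 and 2, and from -0.28 to 0.23 over single rats left out. Smtn went from 0.32 to -0.49 without rats 1 and 2, and from -0.06 to 0.72 over single rats left out. The difference between the changes of Lmod1 went from -0.73 to 0.50 over single rats left out. Scaling moved the median of all genes to between -0.11 and 0.06. The cause was not tested. Lmod1 and Myocd were limited by signal over background.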
